A study of Rattus norvegicus with 12 samples.

Results

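Cytosolic ribosomal protein genes encode the proteins that, with ribosomal RNA, build the ribosomes of the cytoplasm. They were taken from the deposited gene table by symbol: every row named Rpl or Rps with a number, with or without a following a, x, y, l or l and digit, together with Rplp0, Rplp2 and Rpsa. Rplp1 was not analysed here. Symbols ending in -ps, unnamed loci and the Rps6k kinases were left out. The rule held 102 of 22062 rows, which carried 88 of 21797 symbols. Of these, 81 symbols reached at least 1 FPKM (fragments per length of transcript and per library size) in at least 3 of 12 libraries and were tested among 12270 genes. The tested genes were 34 of the small subunit and 47 of the large subunit.

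The libraries came from rats that carried an implant, and the labels give the tissue as subcutaneous tissue or muscle. Control animals received GelMA (gelatin methacryloyl, a light-cured hydrogel), and test animals received MFN+GelMA, where MFN is not spelled out and the title of the series speaks of a microfiber. Tissue was taken at 2 and 4 weeks, which gave 4 groups of 3 libraries. Controls are called GelMA 2W and GelMA 4W by week, and the test groups MFN+GelMA 2W and MFN+GelMA 4W. The strain, sex and age of the rats and a group without implant are not given in the labels. They also do not say whether replicates were separate animals, so the p-values measure the spread between these libraries, which may be technical. The count-like totals were 11174499 to 13025655 per library. Markers of skeletal muscle fibre summed to 9.81 to 25.6 FPKM in 11 libraries and to 780 FPKM in MFN+GelMA 2W replicate 2, those of white fat reached 11177 FPKM in GelMA 4W replicate 2 against 413 to 5935 FPKM elsewhere, and those of endothelium were low in GelMA 2W replicate 3 (95.5 FPKM) for its group.

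A ribosome holds a small subunit, which reads the messenger RNA, and a large subunit, which joins the amino acids. Most ribosomal proteins are needed in equal number, and cells keep the production of the set balanced. Most mRNAs for these proteins begin with a 5′ terminal oligopyrimidine (TOP) tract, a C followed by an unbroken run of C and T. Through it the kinase mTORC1 and the RNA-binding protein LARP1 govern how strongly these mRNAs are translated and how stable they are. Growing tissue, such as the granulation tissue around an implant, makes many ribosomes. RNA levels, as measured here, do not show translation.

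The sequences around the annotated transcription start show what these genes share. RefSeq (build GRCr8) gave 67 promoters for 66 of the 88 symbols. A C at the annotated start itself followed by at least 4 pyrimidines stood in 22 of the 67 promoters, a share of 32.8%, against 2.63% of 33469 promoters of all genes. In a window of 30 bases, 10 before the start and 20 from it on, such a run was found in 71.6% against 33.6%. The motif CCGGAA, the core of an ETS factor site, occurred on either strand of the 300 bases from 250 before to 50 after the start in 44.8% of the 67 against 14.95% of all. AAGATGG, part of a YY1 site and also searched on both strands, occurred in 16.4% against 7.01%. TATAAA, searched likewise, occurred in 13.4% against 14.2%. The opening CC of CCGGAA can be part of a pyrimidine run, as can the TTCC of TTCCGG, its form on the other strand. Such overlaps were not counted. The shares describe letters in a window, not binding. The 30-base windows of the genes that carry the results below are shown with the longest pyrimidine run that begins with C and has at least 5 bases in capitals. Base 11 is the annotated start.
Rpl4, chr8:73566467-73566496 (+): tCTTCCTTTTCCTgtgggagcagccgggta
Rpl37a, chr9:81748081-81748110 (+): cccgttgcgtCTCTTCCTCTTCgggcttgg
Rps28, chr7:15311314-15311343 (-): ccctgctcacgtgaCTCCTCTCCgctagat
Rps2, chr10:14251838-14251867 (+): tCTTTTTCTTCgggaaaacacgtgagtctg
Rpl10, chrX:157205840-157205869 (+): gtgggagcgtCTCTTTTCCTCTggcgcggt
Rpl10a, chr20:6390523-6390552 (+): cttctgCCTTCTTTTCCggttcccgcagcc
Rpl7l1, chr9:21695708-21695737 (+): cagatgcattgtgggaagCCTTTaactcgt
Rpsa, chr8:128728869-128728898 (+): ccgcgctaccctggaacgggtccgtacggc
Rpl6, chr12:41011671-41011700 (-): ttacatcactagatggcgggtgaaaaggcg
Rps27l, chr8:76443648-76443677 (+): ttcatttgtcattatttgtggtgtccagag
In Rpl37a and Rpl10 the run begins at the annotated start. In Rpl10a, Rpl4 and Rps2 it begins before the start and reaches it, and in Rps28 and Rpl7l1 it begins after it. The windows of Rpsa, Rpl6 and Rps27l hold no such run. Starts were not measured in these libraries, so a window without a run does not show that the mRNA lacks a TOP tract.

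Most of the 81 tested genes were abundant in the tissue. On the FPKM scale 70 of them averaged at least 100 over the 12 libraries, 44 at least 500 and 15 at least 1000, while 11 lay below 100. The highest mean levels were those of Rps29 (1770.1 FPKM, range 1295 to 2314), which encodes a short zinc-binding protein of the small subunit, and Rpl39 (1509.7 FPKM, 664 to 2654), a very short protein that lines the exit tunnel of the large subunit. They were followed by Rps15a with a mean of 1474 FPKM, Rpl35 with 1449 FPKM, Rps24 with 1407 FPKM and the X-linked Rps4x with 1261 FPKM.

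The genes at the bottom of the range need care, because several are essential proteins that a tissue cannot lack. Rps6, the small-subunit protein that S6 kinases phosphorylate, was listed at 0.568 to 2.62 FPKM. Rpl35a, a large-subunit protein, was listed at 4.70 to 14.1 FPKM, spread over 3 rows of 330 to 401 bases. Rpl8, which sits at the peptidyl transferase centre, was listed at 0 in all libraries but MFN+GelMA 4W replicate 2 (0.132 FPKM) and was not tested. Of the 84 member symbols found in RefSeq, 5 had no row on the chromosome that RefSeq gives (Rpl30, Rpl35a, Rpl37, Rpl5l1 and Rps13), and 23 of the 102 rows spanned under 700 bases. Levels of these genes are those of the deposited rows, and whether such a row is the active gene or a near-identical copy was not tested. The other untested symbols were Rpl22l2, Rpl30l1, Rpl31l3, Rpl39l, Rpl3l and Rps19l1.

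Summed over all its rows, the family took a larger share of FPKM with MFN+GelMA than with GelMA at 2 weeks and a smaller one at 4 weeks. No test is given for this sum. As a percentage of summed FPKM without the genes of the mitochondrial genome, it was 9.50, 9.79 and 8.73% in the GelMA 2W libraries and 10.3, 10.3 and 10.4% in the MFN+GelMA 2W libraries. At 4 weeks it was 12.9, 10.1 and 10.8% with GelMA and 8.88, 9.37 and 9.48% with MFN+GelMA. In this measure the materials did not overlap at either week, with MFN+GelMA the higher at 2 weeks and the lower at 4 weeks. As a share of the count-like signal, the family took 1.94 to 2.06% in GelMA 2W and 2.16 to 2.23% in MFN+GelMA 2W, again apart, but 2.18 to 3.07% in GelMA 4W and 2.03 to 2.19% in MFN+GelMA 4W, which overlap. GelMA 4W replicate 1 stood highest in both measures, and in the FPKM share the other GelMA 4W libraries also lay above every MFN+GelMA 4W library.

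**Figure D1:**
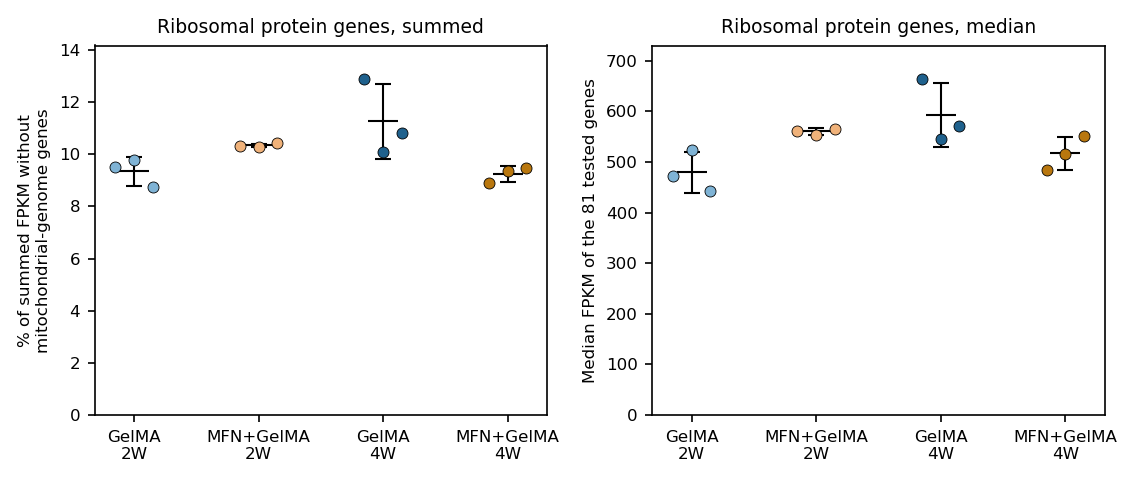
Left, the share of summed FPKM (without mitochondrial-genome genes, in %) taken by ribosomal protein genes in each library; right, the median FPKM of the 81 tested genes. Points are libraries, horizontal lines group means and bars 1 SD (n = 3). MFN+GelMA 2W lies above GelMA 2W (10.3 to 10.4% against 8.73 to 9.79%), and MFN+GelMA 4W below GelMA 4W (8.88 to 9.48% against 10.1 to 12.9%).

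The median level of the 81 genes was also higher by mean with MFN+GelMA at 2 weeks and lower at 4 weeks. It was 473, 523 and 442 FPKM in GelMA 2W and 561, 554 and 566 FPKM in MFN+GelMA 2W, which do not overlap. It was 664, 545 and 570.4 FPKM in GelMA 4W and 485, 515 and 551 FPKM in MFN+GelMA 4W, where the highest test library passed the lowest control. Group means were 479 ± 40.6 FPKM (SD, n = 3) in GelMA 2W, 560.2 ± 6.11 in MFN+GelMA 2W, 593 ± 62.6 in GelMA 4W and 517 ± 32.8 in MFN+GelMA 4W. GelMA 4W had the highest group mean for 55 of the 81 genes, or 67.9% against 23.1% of all tested genes, and GelMA 2W the lowest for 58, or 71.6% against 19.5%. For 58 genes the MFN+GelMA mean was above GelMA at 2 weeks and below it at 4 weeks, against 23.5% of all tested genes. In Rpl29, Rpl4 and Rpsa the libraries of both materials did not overlap at either week, above at 2 and below at 4 weeks, a pattern held by 3.7% of the 81 and by 1.68% of all tested genes. In bulk tissue, fewer cells rich in ribosomes and less of this RNA per cell cannot be told apart.

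Few libraries carried the extremes. GelMA 4W replicate 1 held the highest value of 56 of the 81 genes, and GelMA 2W replicate 3 the lowest value of 50. These libraries also had the smallest and the second smallest count-like totals, 11174499 and 12013215, and GelMA 2W replicate 3 had the lowest share of FPKM from mitochondrial genes (17.8%, against 21.8 to 32.7% elsewhere). The part of depth or of the mitochondrial share in the ribosomal protein levels was not tested.

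Most of the genes varied together over the libraries, and their common level is called the block here. The SD of log2(FPKM + 1) over the 12 libraries had a median of 0.17 over the genes, and it fell to 0.11 once the median of the 81 genes in each library was subtracted. It fell for 68 of the 81. The median is that of the same genes, so part of this fall is built in, and the step was not run on other genes. Rpl4, a large-subunit protein, kept closest to the block with an SD of 0.042 around the median. Its level was 505, 523 and 466 FPKM in GelMA and 545, 583 and 566 in MFN+GelMA at 2 weeks, and 655, 552 and 569.9 in GelMA and 486, 515 and 548 in MFN+GelMA at 4 weeks. It was lowest in GelMA 2W replicate 3 and highest in GelMA 4W replicate 1, and MFN+GelMA lay above GelMA in every library at 2 weeks and below it at 4 weeks. In 3 libraries Rpl4 is itself the median gene, so its small SD around the median is partly built in. Both subunits took part: the mean log2 level went from 8.29 with GelMA to 8.50 with MFN+GelMA at 2 weeks for the large subunit and from 8.34 to 8.48 for the small, and at 4 weeks it was 8.50 against 8.38 for the large and 8.61 against 8.42 for the small subunit.

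**Figure D2:**
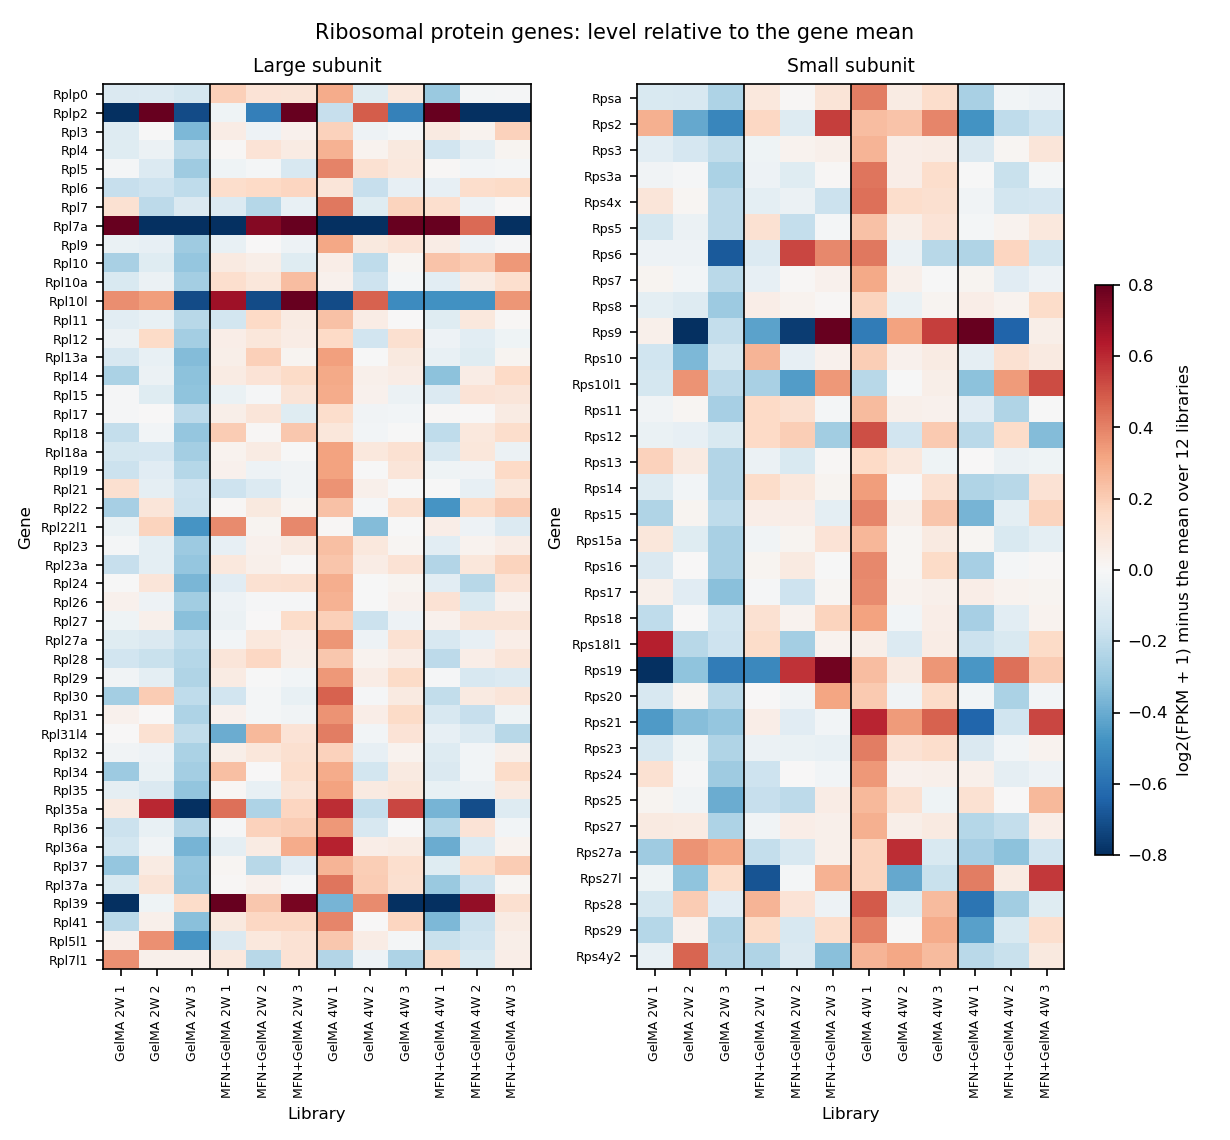
Level of each tested gene (rows; large subunit left, small subunit right) in each of 12 libraries (columns), as log2(FPKM + 1) minus the mean of the gene over the libraries. The column of GelMA 4W replicate 1 is red for most genes and that of GelMA 2W replicate 3 blue, while Rplp2, Rpl7a, Rps9 and Rpl39 do not follow the other genes.

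A few genes did not follow the block, and for them the deposited values limit what can be read. In 8 genes the SD around the library median was at least 0.4 on the log2 scale. Rplp2, a protein of the stalk that recruits elongation factors, was at 40.4, 468 and 70.3 FPKM in GelMA and 113, 79.3 and 844 in MFN+GelMA at 2 weeks, and 102, 163 and 79.6 in GelMA and 205, 61.2 and 34.5 in MFN+GelMA at 4 weeks. Its high libraries were spread over the groups. Rpl7a was at 41.8 to 305 FPKM, and each group held high and low libraries. It stood on 2 rows of equal span on rn6 chromosome 3 (4867232 to 4869656 and 5459159 to 5461583), so its division between near-identical copies is uncertain. Rps9 was at 41.4 to 185 FPKM, and its row spans 108487 bases and overlaps 6 other genes.

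Rpl39 differed from these in that its FPKM varied far more than its count-like signal. FPKM was 664, 1338 and 1519.9 in GelMA and 2654, 1593 and 2322 in MFN+GelMA at 2 weeks, and 1059, 1781 and 768 in GelMA and 683, 2235 and 1500.0 in MFN+GelMA at 4 weeks. The count-like signal stayed between 1331 and 1904 in the same libraries. The signal per unit of FPKM therefore ranged from 0.56 to 2.15 for Rpl39, whereas it varied by under 1.2 fold for 78 of the 81 genes. The other exceptions were Rps15a and Rps27l. Differences in Rpl39 between groups, or in its rank, can be read from neither column alone.

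**Figure D3:**
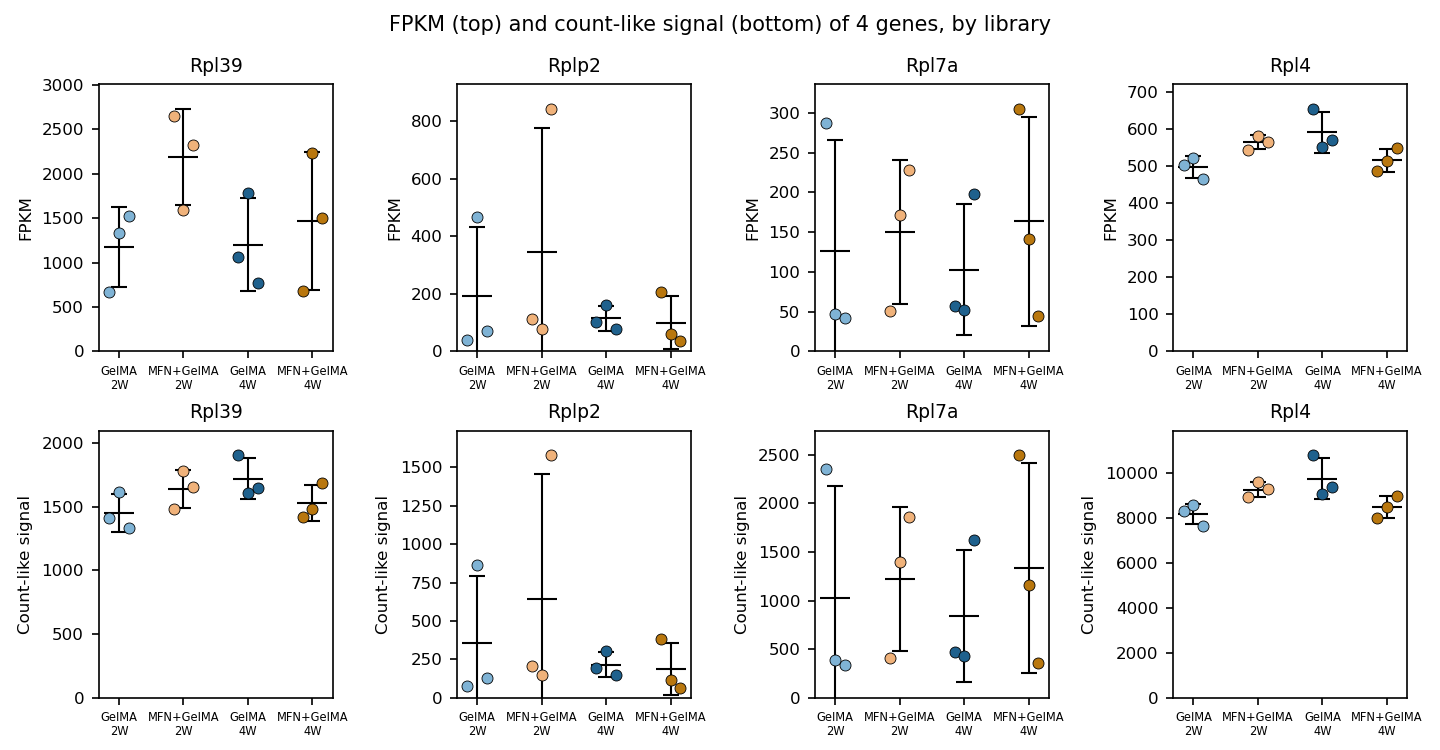
FPKM (top) and count-like signal (bottom) of Rpl39, Rplp2, Rpl7a and, as a gene close to the block, Rpl4, by group. Points are libraries, horizontal lines means and bars 1 SD (n = 3), with bars ended at 0. Rpl39 spreads from 664 to 2654 FPKM but from 1331 to 1904 in count-like signal, and Rplp2 and Rpl7a spread in both.

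At 2 weeks most ribosomal protein genes had a higher mean with MFN+GelMA than with GelMA, but no gene passed the test. Of the 81 genes 0 were called by limma at an adjusted p under 0.05, against 0.497% of all 12270 genes (0.171% higher and 0.326% lower). The median log2 fold change, MFN+GelMA over GelMA, was 0.15 against 0.0065 for all tested genes, and 70 of the 81 values were positive. The medians were 0.17 for the large and 0.12 for the small subunit. In 27 genes every MFN+GelMA library lay above every GelMA library and in 0 genes below, against 9.7% and 8.48% of all tested genes. At an unadjusted p under 0.05 there were 10 genes, and the smallest adjusted p was 0.136. The share of all genes at that unadjusted threshold was not counted, here or in the comparisons below, so such counts have no background. Without GelMA 2W replicate 3 the median fell to 0.095, and without that library, GelMA 4W replicate 2 and MFN+GelMA 2W replicate 2 it was 0.084.

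The gene with that smallest p was Rpl6, a large-subunit protein. It was at 359, 364 and 354 FPKM in GelMA 2W and at 451, 455 and 461 FPKM in MFN+GelMA 2W, so the groups were far apart relative to their spread. The log2 fold change was 0.34 (SE 0.097, adjusted p 0.136 by limma). The SE rests on the spread of all 4 groups, and the SD of this gene was 5.14 FPKM in GelMA 2W and 4.97 in MFN+GelMA 2W but 39.3 in GelMA 4W and 36.3 in MFN+GelMA 4W. Rplp0, the stalk base protein often used as a reference gene in PCR, was at 865, 868 and 851 FPKM against 1071, 1012 and 1007 FPKM, again with no overlap.

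At 4 weeks most of the genes had a lower mean with MFN+GelMA, and 2 passed the test. Rpl37a and Rps28 fell in MFN+GelMA and 0 genes rose, while 24.6% of all genes were called (15.3% higher and 9.27% lower). The median log2 fold change was -0.16 against 0.049 for all tested genes, with 66 negative values. It was -0.21 for the small and -0.12 for the large subunit. In 19 genes every MFN+GelMA library lay below every GelMA library, against 18.6% of all tested genes, and in 1 gene, Rpl10, above, against 27%. At an unadjusted p under 0.05 there were 17 genes, while 24.6% of all genes passed even the adjusted threshold. Without GelMA 4W replicate 1 the median was -0.082 and 0 genes were called, against 10.6% of all genes higher and 5.85% lower.

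Rpl37a, a zinc-finger protein of the large subunit, lies on rn6 chromosome 9 (80002044 to 80005027, plus strand). It was at 233, 199 and 188 FPKM in GelMA 4W and at 140.3, 153 and 174 FPKM in MFN+GelMA 4W. All test libraries were below all controls, with a log2 fold change of -0.40 (SE 0.13, adjusted p 0.0362 by limma). Rps28, which sits near the mRNA exit of the small subunit, lies on rn6 chromosome 7 (18682070 to 18683440, minus strand). It was at 826, 551 and 701 FPKM in GelMA 4W and at 393, 486 and 551 FPKM in MFN+GelMA 4W. The lowest control stood just above the highest test library, and the log2 fold change was -0.53 (SE 0.17, adjusted p 0.0434 by limma). With each library left out in turn, the call held in 7 of 12 fits for Rpl37a and in 5 of 12 for Rps28, and adjusted p over every alternative reached 0.141 and 0.163.

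The scaling of FPKM changed the number of calls in this comparison. Mitochondrial genes took 22.4 to 32.7% of FPKM in MFN+GelMA 4W and 25.5 to 28.7% in GelMA 4W. With FPKM rescaled after leaving out mitochondrial genes, the median of all genes moved from 0.049 to -0.060 and that of the ribosomal protein genes to -0.29, with 18 of 82 genes (22%) called lower and 0 higher, against 13% of all genes lower and 11.1% higher under that scaling. Set against the median of all genes, the family lay at -0.21 in the deposited FPKM and at -0.23 after rescaling. With median-ratio scaling 7 genes (8.54%) were called lower, against 11.2% of all genes. With the count-like signal scaled by library total there were 12 (15%), against 12.9% of all genes. Rpl37a and Rps28 were called under each of these 3 scalings.

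**Figure D4:**
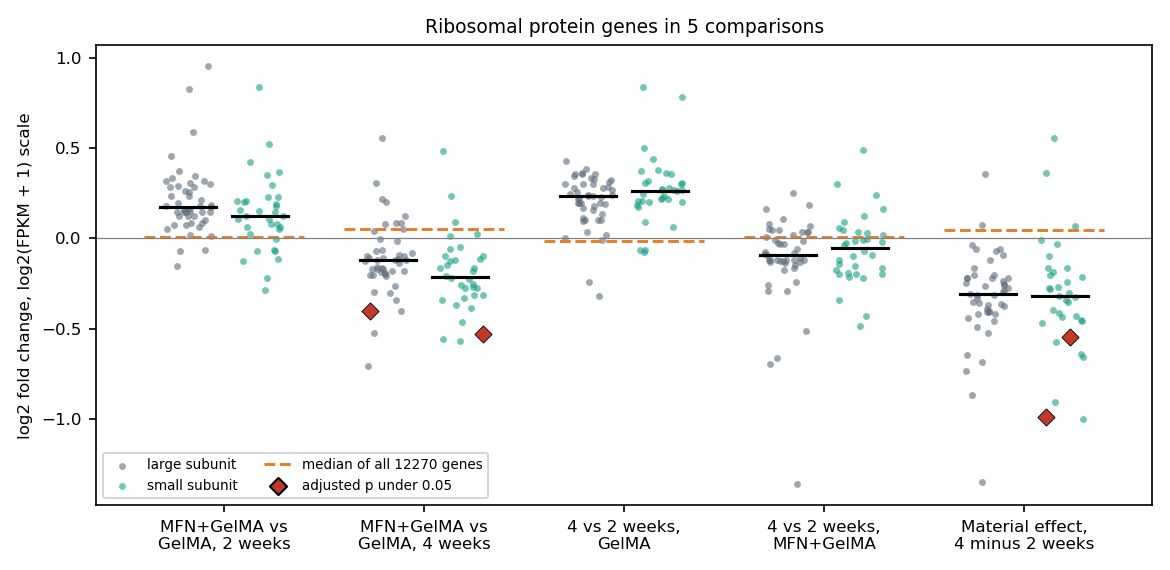
Log2 fold change on the log2(FPKM + 1) scale of each tested ribosomal protein gene in 5 comparisons, large subunit grey and small subunit green. Black bars are the medians of each subunit, orange dashed lines the medians of all 12270 tested genes and red diamonds genes with an adjusted p under 0.05. The points lie mostly above 0 at 2 weeks and mostly below 0 at 4 weeks (medians 0.15 and -0.16), and 2 diamonds appear at 4 weeks and 2 in the last comparison.

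In GelMA most ribosomal protein genes had a higher mean at 4 than at 2 weeks. No gene passed the adjusted threshold (0 of 81, against 2.23% of all genes, 0.497% higher and 1.74% lower). At an unadjusted p under 0.05 there were 32 genes, again without a share of all genes at that threshold. The median log2 fold change from 2 to 4 weeks was 0.24 against -0.017 for all tested genes, and 75 values were positive. In 34 genes every GelMA 4W library lay above every GelMA 2W library, against 10.3% of all tested genes, and in 1 gene below, against 14.2%. Rps21, a small-subunit protein, had the smallest p: it was at 115, 124 and 127 FPKM at 2 weeks and at 241, 199 and 219 FPKM at 4 weeks. Its groups were well apart, with a log2 fold change of 0.84 (SE 0.22, adjusted p 0.079 by limma). The count-like signal behind these FPKM was small, at 72.0 to 80.1 in GelMA 2W and 129 to 153 in GelMA 4W. The median was 0.16 without GelMA 4W replicate 1 and 0.18 without GelMA 2W replicate 3.

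In MFN+GelMA the means at 4 weeks lay close to those at 2 weeks for most genes. The median log2 fold change was -0.087 against 0.0092 for all tested genes, with 56 negative values and 0 of 81 called, against 19.3% of all genes (11.2% higher and 8.11% lower). Every MFN+GelMA 4W library lay above every MFN+GelMA 2W library for 3 genes and below for 8, against 20.1% and 17.6% of all tested genes. At an unadjusted p under 0.05 there were 3 genes, while 19.3% of all genes passed even the adjusted threshold. Without MFN+GelMA 4W replicate 1, which held the lowest value of 13 genes, the median was -0.036. The comparisons over time and between materials share libraries, so their values are not independent of each other.

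The difference between the material effects at 4 and at 2 weeks was tested as an interaction. It was negative for 76 of the 81 genes, with a median of -0.32 against 0.047 for all tested genes. Rpsa and Rps2 passed the test, both negative, or 2.47% of the 81 against 4.98% of all genes called lower. Of the 81, 0 were called higher, against 9.1% of all genes, and 14.1% of all genes were called either way. At an unadjusted p under 0.05 there were 27 genes, with no share of all genes counted at that threshold. Leaving out 1 library at a time moved the median between -0.38 and -0.25 and the number of called genes between 0 and 4. In these fits 2.37 to 4.86% of all genes were called lower.

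Rpsa encodes a small-subunit protein also known as the laminin receptor, and lies on rn6 chromosome 8 (128806128 to 128809986, plus strand). Its level was 938, 937 and 863 FPKM in GelMA and 1084, 1030.5 and 1099 in MFN+GelMA at 2 weeks, and 1360.2, 1070.2 and 1127 in GelMA and 855, 1007 and 993 in MFN+GelMA at 4 weeks. MFN+GelMA was above GelMA in every library at 2 weeks and below it in every library at 4 weeks. The interaction was -0.54 (SE 0.16, adjusted p 0.0472 by limma). Rps2, beside the channel through which mRNA enters the small subunit, lies on rn6 chromosome 10 (14088318 to 14089979, plus strand), and a second row on chromosome 5 stayed below 1 FPKM. It was at 431, 265 and 245 FPKM in GelMA and 396, 328 and 518 in MFN+GelMA at 2 weeks, and 418, 413 and 462 in GelMA and 253, 306 and 316 in MFN+GelMA at 4 weeks. The groups overlapped at 2 weeks and were apart at 4 weeks, and the interaction was -0.99 (SE 0.30, adjusted p 0.0498 by limma). Both calls lie close to the threshold: with each library left out in turn, the call held in 1 of 12 fits for Rpsa and in 2 of 12 for Rps2. Without replicate 3 of GelMA 2W, replicate 2 of GelMA 4W and replicate 2 of MFN+GelMA 2W, 0 ribosomal protein genes were called. Of all genes, 4.43% were then called lower and 7.6% higher.

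Because most of these genes varied together, the fit was repeated with the median of the 81 genes subtracted in each library. This second fit asks whether a gene left the block. In this fit a value near 0 means that a gene moved with the other ribosomal protein genes. Many other genes of the tissue are called as soon as the block itself moves. The adjustment runs over all 12270 genes, so many such calls raise the unadjusted p at which a ribosomal protein gene passes. At 2 weeks 0 of the 81 genes were called (1.6% of all genes), with 1.45% lower and 0.147% higher. At 4 weeks 4 genes rose relative to the block, Rpl10, Rpl6, Rpl10a and Rps27l, and 0 fell, against 29.9% of all genes (23.8% higher and 6.08% lower).

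Rpl10 had the smallest adjusted p of these. It encodes a protein that joins the large subunit late in its assembly and lies near the peptidyl transferase centre, on rn6 chromosome X (156438250 to 156440461, minus strand). It was at 979, 1098 and 947 FPKM in GelMA and 1237, 1214 and 1099 in MFN+GelMA at 2 weeks, and 1217, 1021 and 1187 in GelMA and 1376, 1354 and 1496 in MFN+GelMA at 4 weeks. MFN+GelMA 4W held the 3 highest values of all 12 libraries. Relative to the block it was higher with MFN+GelMA at 4 weeks by 0.50 log2 units (SE 0.10, adjusted p 0.00397 by limma), and the call held in each of 16 alternative fits, with adjusted p between 0.00401 and 0.0183. In the deposited FPKM, without the subtraction, the change at 4 weeks was 0.31 with an adjusted p of 0.0645 by limma. Relative to the block it also rose from 2 to 4 weeks in MFN+GelMA by 0.37 (SE 0.10, adjusted p 0.0300 by limma), a comparison in which 17% of all genes were called (12.1% higher, 4.87% lower), and that call held in 6 of 12 fits with a library left out. Its relative interaction was 0.50 (SE 0.15, adjusted p 0.0272 by limma).

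The other genes that left the block at 4 weeks did so by less or with more spread. Rpl6 was at 438, 359.6 and 391 FPKM in GelMA 4W and at 389.7, 449.9 and 455 FPKM in MFN+GelMA 4W. Its groups overlapped in FPKM, while relative to the block it was higher by 0.32 (SE 0.097, adjusted p 0.0272 by limma). Rpl10a, of the mobile L1 stalk, was at 375, 326 and 361 FPKM and at 344, 383 and 400.1 FPKM, again overlapping, with a relative change of 0.28 (SE 0.095, adjusted p 0.0440 by limma). With a library left out the call held in 8 of 12 fits for Rpl6 and in 2 of 12 for Rpl10a. The row of Rpl10a overlaps that of Tead3.

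Rps27l is a paralog of Rps27 that p53 is known to induce in human cells. Its level was 238, 195 and 270.4 FPKM in GelMA and 151, 242 and 296 in MFN+GelMA at 2 weeks, and 276, 184 and 216 in GelMA and 324, 256 and 361 in MFN+GelMA at 4 weeks. Most MFN+GelMA 4W values were high, with 1 control above the lowest of them. Relative to the block the change at 4 weeks was 0.68 (SE 0.24, adjusted p 0.0498 by limma) and the interaction 0.98 (SE 0.34, adjusted p 0.0478 by limma). As a percentage of Rps27, its FPKM was 16.3 to 20.8% in GelMA 4W and 26.7 to 34.8% in MFN+GelMA 4W, which do not overlap, against 17.1 to 29.4% in GelMA 2W and 14.1 to 26.3% in MFN+GelMA 2W. Its count-like signal, which did not scale with FPKM in this gene, was 477 to 709 in GelMA 4W and 749 to 844 in MFN+GelMA 4W. The call at 4 weeks held in 5 of 12 fits with a library left out.

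Rpl7l1, a paralog of Rpl7 linked to ribosome assembly, went the other way over time. It was at 44.4, 35.1 and 35.2 FPKM in GelMA and 36.3, 29.1 and 37.1 in MFN+GelMA at 2 weeks, and 28.9, 33.2 and 28.7 in GelMA and 38.2, 31.4 and 35.5 in MFN+GelMA at 4 weeks. Every GelMA value at 4 weeks was below every GelMA value at 2 weeks, and relative to the block it fell from 2 to 4 weeks, with a change of -0.63 (SE 0.17, adjusted p 0.0310 by limma). In that comparison 17.2% of all genes were called (0.342% higher and 16.8% lower). The relative interaction was 0.78 (SE 0.24, adjusted p 0.0313 by limma), and 28.4% of all genes were called there (26.2% higher and 2.27% lower). As a percentage of Rpl7, its FPKM was 29.9 to 31.9% in GelMA 2W and 16.8 to 27.9% in GelMA 4W. The signal per unit of FPKM was 69.4 to 69.5 for Rpl7 and 7.32 to 7.41 for Rpl7l1. In count-like signal the percentage is therefore far lower, with Rpl7l1 at 212 to 327 and Rpl7 at 7554 to 11909 over the 12 libraries. The call over time held in 8 of 12 fits with a library left out and that of the interaction in 6 of 12. Rpl10, Rpl7l1 and Rps27l were the 3 genes called in the relative interaction.

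**Figure D5:**
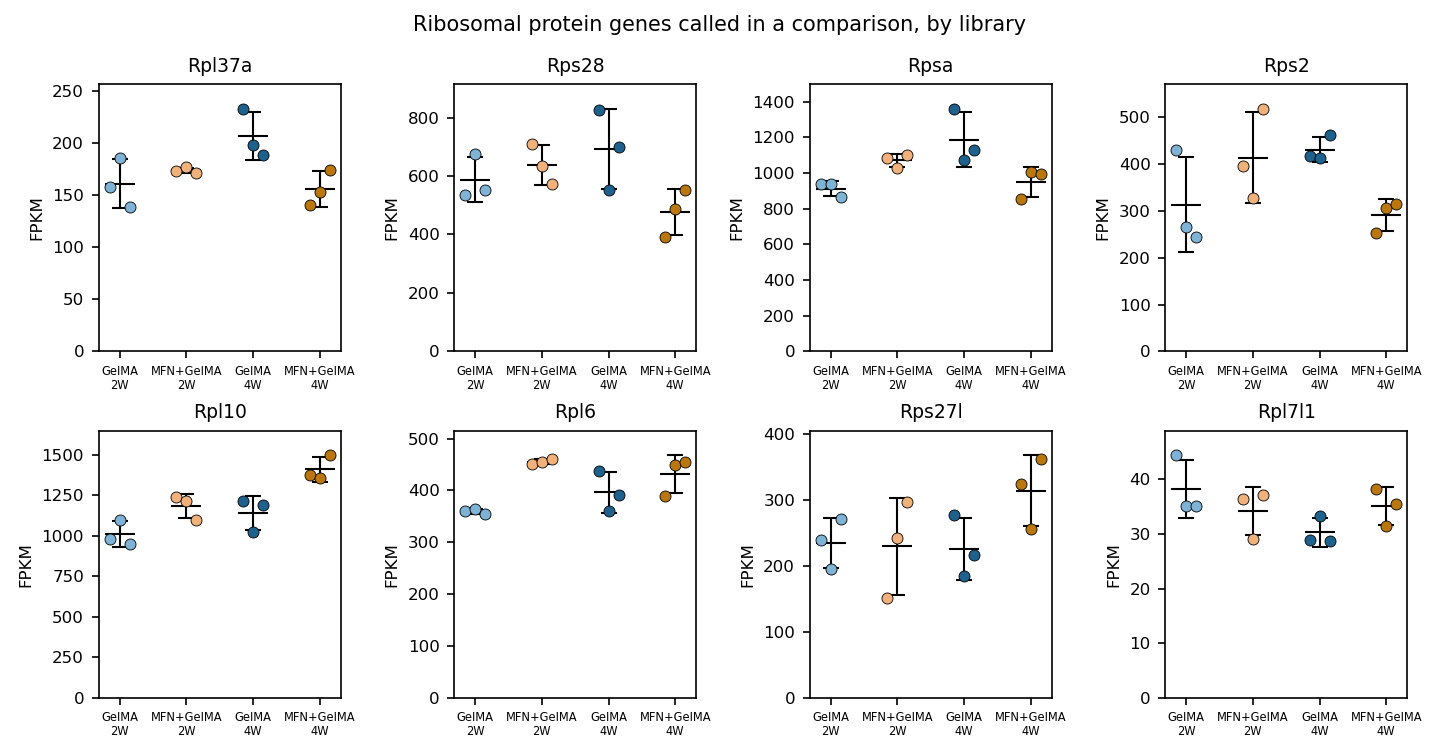
FPKM of 8 ribosomal protein genes called in a comparison, by group. Points are libraries, horizontal lines means and bars 1 SD (n = 3). In the top row, Rpl37a, Rps28, Rpsa and Rps2 have a lower mean in MFN+GelMA than in GelMA at 4 weeks; in the bottom row, Rpl10 is highest in MFN+GelMA 4W (1354 to 1496 FPKM) and Rpl7l1 lowest in GelMA 4W (28.7 to 33.2 FPKM).

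Paralogs that are known mainly from single tissues stayed low. Rpl3l, the form of Rpl3 made in skeletal and heart muscle, reached 3.12 FPKM in the library with the muscle fibre markers, MFN+GelMA 2W replicate 2, against 0 to 0.603 FPKM in the other libraries. Rpl10l, known from testis in mouse and human, was at 0 to 3.33 FPKM, or at most 0.303% of Rpl10. Rpl39l, also known from testis, was at 1.09 FPKM in GelMA 4W replicate 1, at 0.24 FPKM in GelMA 4W replicate 2 and at 0 in the other libraries. Rpl22l1, which can compensate for loss of Rpl22 in mice, was at 67.5 to 123 FPKM, or 16.01 to 29.2% of Rpl22. In both measures the materials overlapped at each week. Symbols numbered as paralogs of Rpl5, Rps10, Rps18 and Rpl31 were at 5.82 to 9.33% (Rpl5l1), 8.75 to 21.1% (Rps10l1), 4.61 to 10.2% (Rps18l1) and 8.15 to 13.6% (Rpl31l4) of the parent gene, and reads shared with near-identical copies make these shares uncertain. Rps4y2 was at 6.75 to 12.5 FPKM, or 0.603 to 0.985% of Rps4x. Its row lies on rn6 chromosome 4, spans 218906 bases and overlaps Tmtc1, so what this level measures is uncertain.

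The other genes of translation are described by their lists, and no test between lists was made. At 2 weeks 0 of 9 elongation genes, 0 of 37 initiation factors, 0 of 23 other genes with TOP mRNAs, 0 of 71 ribosome biogenesis genes and 0 of 72 mitochondrial ribosomal protein genes passed the test. The elongation genes are not all elongation factors, since the kinase gene Eef2k is among them. Their median log2 fold changes were 0.20, 0.10, 0.17, 0.082 and 0.090, beside 0.15 for the ribosomal proteins. At 4 weeks the medians were -0.062 for elongation genes, 0.13 for initiation factors, -0.062 for the other TOP mRNAs, -0.027 for biogenesis and 0.086 for mitochondrial ribosomal proteins, beside -0.16. For the difference between the material effects they were -0.26, 0.0023, -0.19, -0.098 and 0.018 for elongation, initiation, other TOP mRNAs, biogenesis and mitochondrial ribosomal proteins, beside -0.32. Over time in GelMA they were 0.12, -0.0032, 0.14, -0.036 and 0.069 in the same order, beside 0.24. Elongation genes and the other TOP mRNAs thus had medians of the same sign as the ribosomal proteins in these 4 comparisons. The lists share some genes, since elongation factors and several initiation factors have TOP mRNAs.

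Among the TOP mRNAs outside the family, 2 of 23 rose (8.7%, against 15.3% of all genes) and 1 fell (4.35%, against 9.27%) at 4 weeks. Tpt1, a very abundant growth-linked protein, was at 3455, 2925 and 2860.4 FPKM in GelMA 4W and at 2305, 2363 and 2405 FPKM in MFN+GelMA 4W. The groups were apart, and it fell by 0.38 in log2 units (SE 0.12, adjusted p 0.0323 by limma). Vim, the intermediate filament of mesenchymal cells, was at 1658, 1374 and 1665 FPKM against 2441, 2810.3 and 2621 FPKM, an increase of 0.75 (adjusted p 0.00182 by limma). Ipo7, an importin that carries ribosomal proteins into the nucleus, rose by 0.56 (adjusted p 0.00463 by limma).

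At 4 weeks the share of initiation factors that rose was near that of all genes. Of 37 initiation factors 6 rose (16.2%, against 15.3% of all genes) and 0 fell (9.27% of all genes), among the former Eif4a1, the helicase of the cap complex, by 0.53 and Eif2s1, the alpha subunit of eIF2, by 0.54 on the log2 scale. Of 9 elongation genes 0 rose and 1 fell (11.1%, against 9.27% of all genes). It was Eef2k, the kinase that inactivates elongation factor eEF2, which fell by 0.36. Of 71 biogenesis genes 2 rose (2.82%) and 1 fell (1.41%), beside the same background. Polr1a, the largest subunit of RNA polymerase I, was at 5.79, 5.86 and 7.14 FPKM in GelMA 4W and at 13.0, 10.8 and 12.8 FPKM in MFN+GelMA 4W, an increase of 0.86 (SE 0.16, adjusted p 0.00235 by limma). Polr1d, shared by polymerases I and III, rose by 0.45, and Tcof1, a nucleolar cofactor of polymerase I, fell by 0.36. Of 72 mitochondrial ribosomal protein genes 6 rose (8.33%, against 15.3% of all genes) and 1 fell (1.39%, against 9.27%), and Mrps6 rose by 1.38.

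Among regulators of mTOR signalling and of TOP mRNAs, Ddit4 was called at both weeks. Ddit4, a stress-induced inhibitor of mTORC1, was at 10.8, 13.8 and 8.57 FPKM in GelMA and 38.0, 34.1 and 54.0 in MFN+GelMA at 2 weeks, and 15.3, 16.4 and 16.6 in GelMA and 26.5, 34.8 and 33.6 in MFN+GelMA at 4 weeks. It was higher with MFN+GelMA in every library of each week, by 1.83 at 2 weeks and 0.92 at 4 weeks on the log2 scale (adjusted p 0.00297 and 0.00476 by limma). At 2 weeks it was the 1 gene called of 33 in the list (3.03% higher, against 0.171% of all genes). At 4 weeks 8 of the 33 rose (24.2%, against 15.3% of all genes) and 1 fell (3.03%, against 9.27%). Among them, Rps6ka1 and Rps6ka2, kinases of the RSK family that can phosphorylate Rps6, rose by 1.18 and 0.93, and Mxi1, an antagonist of Myc, by 1.03. From 2 to 4 weeks in MFN+GelMA 7 rose (21.2%, against 11.2% of all genes) and 0 fell (8.11% of all genes), among the former Sesn1, which restrains mTORC1, by 1.14 and Rptor, the scaffold of mTORC1, by 0.74. In GelMA 0 rose over time (0.497% of all genes) and 1 fell (3.03%, against 1.74%). The gene that fell was Mxd1, another Myc antagonist, by 0.77. The activity of mTORC1 is set at the protein level, which was not measured.

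Markers of cell types differed between the groups beside these results. At 4 weeks 15.3% of all genes were called higher and 9.27% lower, which is the background for the counts below. The marker lists hold few genes, so shares of them are coarse. At 4 weeks 3 of 5 macrophage markers (Ptprc, Csf1r and Cd68) were called higher with MFN+GelMA, and the list summed to 709 to 1119 FPKM in GelMA 4W and 1424 to 1525 in MFN+GelMA 4W, against 1147 to 1535 in GelMA 2W and 966 to 1077 in MFN+GelMA 2W. Of 3 fibroblast markers tested, Dcn and Pdgfra were called lower and Lum higher at 4 weeks, and the list summed to 3736 to 6007 FPKM in GelMA 4W and 2823 to 3397 in MFN+GelMA 4W. Of 4 endothelial markers 1 was called lower (126 to 208 against 92.3 to 106 FPKM in sum), and of 3 smooth muscle markers 1 was called lower (153 to 199 against 70.1 to 149 FPKM). None of 5 T cell, 4 neutrophil, 5 white fat or 2 B and plasma cell markers tested was called at 4 weeks. White fat markers had a median log2 fold change of -3.32. In 4 of the 5 every MFN+GelMA library lay below every GelMA library, and 1 had a positive change (0.68). The sum of the 5 was 2178 to 11177 FPKM in GelMA 4W and 4798 to 5935 in MFN+GelMA 4W. It does not follow those 4 markers. Keratinocyte markers summed to at most 1.38 FPKM, with Krt5 at 0 in every library. The part of these cell types in the ribosomal protein levels was not tested.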

How the data were processed

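Total RNA from rat subcutaneous tissue or muscle was depleted of ribosomal RNA and made into stranded libraries (TruSeq Stranded Total RNA), per the labels' protocols. Cutadapt 1.9.3, HISAT2, Cuffdiff and genome build rn6 are named in the submitters' processing notes. The deposited table gives FPKM per gene and a second column per library headed as counts. Those deposited values are treated as a signal, because 2.22% of the positive values lay within 0.01 of a whole number, and how the authors scaled them is not given in the sources used here.

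FPKM of rows with the same symbol were summed. Genes that reached 1 FPKM in 3 libraries or more were tested on log2(FPKM + 1) with limma 3.58.1 in R 4.3.3, fitting the 4 group means to the 12 libraries together with an intensity trend (8 residual and 3.28 prior degrees of freedom) and Benjamini-Hochberg adjustment over 12270 genes at 0.05. Fold changes are on the log2(FPKM + 1) scale, which understates changes of low genes. A second fit subtracted the median of the tested ribosomal protein genes in each library. The test was checked on simulated data. Each library was left out in turn, and the pseudocount, filter, scaling, trend, block and set of libraries were varied.

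The genes and lists were chosen with earlier results of these data known. Named were up to 5 ribosomal protein genes each way past the threshold per comparison and fit, the 6 with the highest mean FPKM, paralogs with their parents, and up to 4 genes per other list and comparison with the smallest p. Rpl4, Rpl29, Rplp0, Rplp2, Rpl7a, Rps9, Rps6, Rpl35a, Rps21 and the gene with the smallest p at 2 weeks were named after their values were seen. The count-like totals were 11174499 to 13025655, and the number of reads behind them is unknown, so no counting interval is given.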

Additional observations from a re-analysis of the deposited data

Results flagged for a closer look

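For 5 results the effect of MFN+GelMA against GelMA differed between 4 and 2 weeks by the interaction term of limma at a Benjamini-Hochberg adjusted p under 0.05. In FPKM as deposited, Rpsa differed by -0.54 and Rps2 by -0.99 on the log2 scale. Relative to the median of the ribosomal protein genes, Rpl10 differed by 0.50, Rpl7l1 by 0.78 and Rps27l by 0.98. In that fit 28.4% of all genes were called, against 14.1% in FPKM as deposited. With 1 library left out at a time, the call held in 8 of 12 fits for Rpl10, 6 for Rpl7l1, 3 for Rps27l, 2 for Rps2 and 1 for Rpsa.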

How the results depend on the processing

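The median log2 fold change of the ribosomal protein genes kept its sign in each comparison under every alternative run. At 4 weeks it moved from -0.16 to -0.29 with mitochondrial genes left out of the scaling and to -0.28 with the count-like signal scaled by library total. In place of 2, the number of genes called lower at 4 weeks was 18 and 12 under these settings, 7 with median-ratio scaling, 1 with no filter on low values (Rpl37a), 1 in a fit of only the libraries compared (Rps2, with Rpl37a and Rps28 not called) and 0 with no intensity trend. In the same order, 13, 12.9, 11.2, 6.94, 10.1 and 9.16% of all genes were called lower. For the difference between the material effects, the number called lower was, in place of 2, 1 with a pseudocount of 0.1 (Rpsa), 0 with no filter, 5 with mitochondrial genes left out of the scaling, 5 with median-ratio scaling and 0 with no intensity trend. In the same order, 4.86, 3.22, 6.41, 5.98 and 4.81% of all genes were called lower. Each count of 5 was 6.1% of the ribosomal protein genes, near the share of all genes. The cause of the differences between settings was not tested. Without GelMA 2W replicate 3, MFN+GelMA 2W replicate 2 and GelMA 4W replicate 2, a setting chosen after seeing the data like that of the count-like signal, 5 genes were called lower at 4 weeks, 3 lower over time in MFN+GelMA and 0 in the difference between material effects. These were 6.17, 3.7 and 0% of the ribosomal protein genes, against 10.2, 10 and 4.43% of all genes called lower. Relative to the member median these libraries' absence left 2 higher and 2 lower at 4 weeks, 2 lower over time in GelMA, 0 higher and 1 lower over time in MFN+GelMA and 1 higher in the difference. Shares of all genes were not counted for the relative fits under these alternatives, so their counts have no background.

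With 1 library left out, the median lay between 0.095 and 0.22 at 2 weeks, -0.22 and -0.082 at 4 weeks, 0.16 and 0.31 over time in GelMA, -0.12 and -0.036 over time in MFN+GelMA and -0.38 and -0.25 for the difference. Genes called lower numbered 0 to 4 at 4 weeks and 0 to 4 for the difference, and genes called higher over time in GelMA 0 to 1. Of all genes, 5.85 to 11.2% were called lower at 4 weeks in these fits and 2.37 to 4.86% for the difference. Relative to the median, 1 to 4 were higher and 0 to 1 lower at 4 weeks, 0 to 1 higher and 0 to 1 lower over time in GelMA, 0 to 1 higher over time in MFN+GelMA, and 0 to 3 higher and 0 to 1 lower for the difference. For these relative counts no share of all genes was counted.

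Libraries with the same replicate number deviated together with correlations of -0.058 to 0.37, so the numbers were not taken to pair the samples. With the replicate number as a block, 1 gene was called lower at 4 weeks (Rps4x, with Rpl37a and Rps28 not called), 0 in the difference between material effects, and 0 higher relative to the median over time in MFN+GelMA. Of all genes, that fit called 9.74% lower at 4 weeks and 5.24% lower in the difference. The planned count test on recovered whole reads was not run, because the count-like values are not whole numbers. Low genes such as Rps6 and Rpl35a are limited by their signal.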
